A study of Mus musculus with 8 samples.

Results

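Mitophagy removes damaged mitochondria through autophagosomes, and it works beside a cycle of fusion and fission that joins mitochondria into a network and cuts them apart again. The expression of 10 genes of these processes was compared between muscles with and without MYTHO knockdown. Of the 10, *Pink1*, *Bnip3*, *Bnip3l* and *Fundc1* mark mitochondria for mitophagy, *Mfn1*, *Mfn2* and *Opa1* carry out fusion, and *Dnm1l*, *Fis1* and *Mff* carry out fission. In muscle fibres, mitochondria are packed between myofibrils, and slow oxidative fibres hold more of them than fast glycolytic ones. Genes were matched by the symbol in the deposited table. Each of the 10 had exactly 1 probe set among 22206, where a probe set is a group of short array probes for a gene, so no choice between probe sets was needed. The probe set of *Pink1* also names a microRNA gene, *Mir7019*, so its signal cannot separate these genes.

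Gastrocnemius (GAS) muscles came from male C57/Bl6j mice, aged 14 weeks per the labels, 3 weeks after a muscle injection of serotype 1 adeno-associated virus (AAV). The series text puts injection at about 10 weeks of age, which with 3 weeks added comes near, but not exactly to, the labelled age. The right leg received a virus coding for a hairpin RNA against the *Mytho* transcript (AAV sh-RNA MYTHO, hereafter MYTHO), and the other leg of the same mouse received a scrambled hairpin (AAV sh-RNA scrmb, hereafter scrmb). In both viruses a U6 promoter, which is not restricted to muscle cells, drove the hairpin, and no muscle without virus was part of the comparison. There were 4 arrays in each group, and the column names carry a number found once in each group, taken here as the animal and written A, B, C or D. Nothing else ties the legs of a mouse together, and p-values measure the spread between these 8 arrays. All values are log2 signals from Clariom S Mouse arrays. As RNA came from whole pieces of muscle, fewer cells of a type and less RNA per cell cannot be told apart.

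The knockdown was present in every animal. *Mytho*, listed as D230025D16Rik, averaged 11.12 ± 0.26 (SD, n = 4) for scrmb against 8.31 ± 0.33 (SD, n = 4) for MYTHO on the log2 scale, which left 14.2% of the scrmb signal (limma adjusted p = 0.00044). The 8 skeletal muscle markers were all measured, with *Acta1* saturated on every array. Their summed linear signal was 3750000 to 4080000 in scrmb and 4130000 to 4280000 in MYTHO, but *Tnnt3* and *Mylpf* also lay near the ceiling. Of the 8, *Mb* alone had an unadjusted limma p under 0.05 (12.4% of all probe sets). Its log2 fold change was 0.55 (limma unadjusted p = 0.0245, adjusted p = 0.326). Over 4 fibroblast markers this sum was 205000 to 275000 in scrmb and 133000 to 203000 in MYTHO, but *Dcn* alone made up 97.8% to 99.5% of it. *Dcn* had a log2 fold change of -0.60 (limma unadjusted p = 0.0085, adjusted p = 0.236), and *Pdgfra*, *Col1a1* and *Col3a1* had -0.22, -0.30 and 0.42. The summed ranges of macrophage, adipocyte, Schwann cell and erythroid markers overlapped, although *Lyz2* made up 69.9% to 76.6% of the macrophage sum. Of the 6 macrophage markers, *Ptprc* had a log2 fold change of -0.59 and was lower in 4 of 4 animals (limma unadjusted p = 0.029, adjusted p = 0.343), and *Cd68* had one of 0.54 (unadjusted p = 0.0882, or 0.0332 with the animal as a block, by limma). What part these cell types have in the differences given here was not tested. On the first principal component, scrmb D had a value of 3.31, between the other scrmb arrays (-45.4 to -25.7) and those of MYTHO (11.7 to 40.4). The slow-fibre genes also set arrays apart. Their mean log2 signal was 13.70 in scrmb A against 11.61 to 11.94 in the other scrmb arrays, and 11.68 in MYTHO D against 14.43 to 14.88 in the other MYTHO arrays. For this reason the values of each animal are given beside the group results.

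Sequence from RefSeq (GRCm38.p6) is shown where it bears on what a probe set measures or on a known regulator of a gene. The microRNA named with *Pink1* lies inside that gene at chr4:138316132-138316200 on the minus strand. Its mature products are given with the seed, bases 2 to 8, in capitals, since the table annotates the probe set to both genes.
mmu-miR-7019-5p: aUCUGGGAggggcugucaggagu
mmu-miR-7019-3p: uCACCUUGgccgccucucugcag
Windows from 250 bases before to 50 bases after the start site were found for 9 of the 10 genes, all but *Bnip3l*. They were searched on both strands for 9 motifs. Hypoxia-inducible factors bind the core ACGTG, which the E-box CACGTG contains, and the E-box known from lysosomal genes is the longer TCACGTGA. For FoxO factors the letters were GTAAACA and the variant form ATAAACA. Oestrogen-related receptors bind AAGGTCA, and CGCATGCG is the core of the NRF1 site. The cAMP response element was searched as TGACGTCA and by its core TGACG. In the most upstream window found for each gene, ACGTG and CACGTG overlapped at the same place in *Bnip3*. CGCATGCG and ATAAACA occurred in *Opa1*, where the start site of the window lies downstream of the gene start given below. TGACG occurred in *Mfn1*, *Mfn2* and *Mff*. The longer E-box, the FoxO site GTAAACA, the oestrogen-related receptor motif and the full cAMP response element occurred in none of the 9. Of all 32851 windows in the table, 19.6% held ACGTG, 7.15% CACGTG, 0.974% TCACGTGA, 3.65% GTAAACA, 4.6% ATAAACA, 4.72% AAGGTCA, 1.87% CGCATGCG, 1.79% TGACGTCA and 20.8% TGACG. Windows of other *Mfn2* start sites also held ACGTG. The windows of *Bnip3* at chr7:138909457-138909756, minus strand, and of *Opa1* at chr16:29579084-29579383, plus strand, are shown 5′ to 3′ with CACGTG or CGCATGCG in capitals. They were picked for display because they hold these matches, and the NRF1 motif was cut from a longer form after its match in *Opa1* was known. A match is a match of letters and not a site shown to be bound.
Bnip3: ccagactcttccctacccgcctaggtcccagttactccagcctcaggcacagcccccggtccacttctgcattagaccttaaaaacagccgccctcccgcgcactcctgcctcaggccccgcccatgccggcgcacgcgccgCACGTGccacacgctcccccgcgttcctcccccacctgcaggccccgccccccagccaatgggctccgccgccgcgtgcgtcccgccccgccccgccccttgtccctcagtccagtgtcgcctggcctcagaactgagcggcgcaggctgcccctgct
Opa1: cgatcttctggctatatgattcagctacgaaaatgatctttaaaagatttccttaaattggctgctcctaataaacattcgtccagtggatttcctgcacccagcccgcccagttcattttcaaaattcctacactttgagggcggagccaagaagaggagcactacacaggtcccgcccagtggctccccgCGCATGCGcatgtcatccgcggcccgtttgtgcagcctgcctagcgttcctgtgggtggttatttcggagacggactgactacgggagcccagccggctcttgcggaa

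None of the 10 genes passed a test for a difference between MYTHO and scrmb. With limma, 0 of 10 had an unadjusted p under 0.05, where 12.4% of all probe sets did, and 0 had an adjusted p under 0.05, where 0.027% did. None changed by at least 2-fold at an unadjusted p under 0.05, the threshold of the study, which 1.51% of all probe sets passed. The groups overlapped for each of the 10, and 6.46% of all probe sets had no overlap. With the animal as a block, again 0 of 10 had an unadjusted limma p under 0.05 (12.6% of all probe sets) and 0 an adjusted p under 0.05 (0.00901%). Log2 fold changes, MYTHO minus scrmb, ran from -0.40 for *Dnm1l* to 0.36 for *Mfn2* and were above 0 for 7 genes and below 0 for 3. Their median was 0.10, and that of all probe sets was -0.005. These arrays still bounded the size of a change in array signal. The 95% interval of the fold change lay inside a 2-fold change in either direction for all 10 genes. The same held for 84.2% of all probe sets, and the intervals are not adjusted for the number of genes. It also held for 9 of the 10 without any single array, but not for *Pink1*, whose upper limit was above a 2-fold change without scrmb B, scrmb D, MYTHO C or MYTHO D, at up to 1.16 on the log2 scale.

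**Figure D1:**
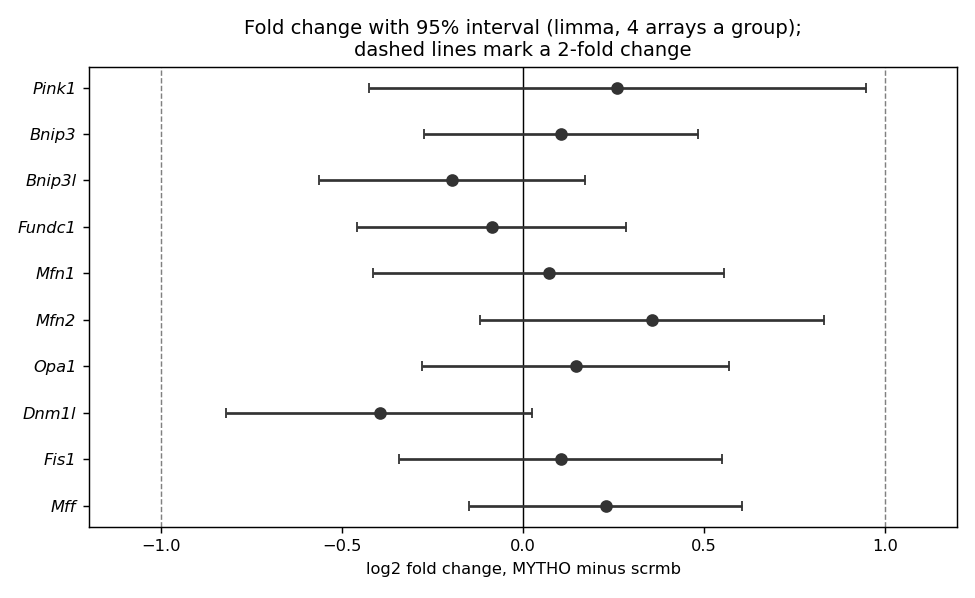
Log2 fold change, MYTHO minus scrmb, of the 10 genes on the horizontal axis, with bars for the 95% interval from limma (4 arrays in each group). Every interval includes 0, and every interval lies between the dashed lines that mark a 2-fold change.

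Among the mitophagy genes, differences were small and of both signs. *Pink1* (chr4:138313409-138326296) codes for a kinase that is held on damaged mitochondria and recruits the ubiquitin ligase parkin. Its log2 signal was 5.03, 5.30, 4.76 and 5.62 in scrmb and 5.72, 6.24, 5.09 and 4.70 in MYTHO, for animals A to D. It was the noisiest of the 10, with the widest interval, and its MYTHO arrays held both the highest and the lowest value. Its log2 fold change was 0.26 with a 95% interval from -0.43 to 0.95 (limma adjusted p = 0.792). All its signals lay below the lowest array median of 6.39. This dim probe set was lost from the fit when the lower 50% by mean signal was removed.

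*Bnip3* (chr7:138890836-138909506) and *Bnip3l* (chr14:66985238-67008877), which codes for NIX, are related receptors of the outer mitochondrial membrane that bind LC3 directly. *Bnip3*, whose window above holds the E-box, had log2 signals of 11.82, 12.13, 12.00 and 11.94 in scrmb and 12.16, 11.91, 12.31 and 11.93 in MYTHO. It was higher in 2 of 4 animals, and the group means differed by 0.11 on the log2 scale (95% interval -0.27 to 0.48, limma adjusted p = 0.859). *Bnip3l* had log2 signals of 13.06, 13.04, 13.08 and 12.91 in scrmb and 12.79, 12.95, 12.58 and 12.98 in MYTHO. The scrmb arrays lay close together, and the MYTHO arrays of animals A and C lay below all of them. Between groups it differed by -0.20 on the log2 scale (95% interval -0.57 to 0.17), and the limma adjusted p was 0.691 (exact permutation, two-sided, p = 0.0857).

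*Fundc1* (chrX:17519967-17572329), an outer membrane receptor known from mitophagy under low oxygen, had log2 signals of 11.87, 12.09, 12.10 and 11.69 in scrmb and 11.81, 11.76, 11.96 and 11.87 in MYTHO. The MYTHO values lay within the range of scrmb. The groups differed by -0.09 on the log2 scale (95% interval -0.46 to 0.29, limma adjusted p = 0.882).

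None of the 3 fusion genes passed a test, and their arrays spread widely within groups. *Mfn1* (chr3:32529443-32579225) codes for mitofusin 1, a GTPase that joins outer membranes. Its log2 signal was 14.17, 13.65, 13.67 and 13.65 in scrmb and 13.39, 14.20, 14.11 and 13.72 in MYTHO. In scrmb, animal A stood above 3 nearly equal arrays, and in MYTHO the same animal was the lowest. The log2 fold change was 0.07 (95% interval -0.41 to 0.55, limma adjusted p = 0.933), and it turned to -0.045 without MYTHO B and -0.015 without MYTHO C.

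*Mfn2* (chr4:147873586-147904909) codes for mitofusin 2, which also tethers mitochondria to the endoplasmic reticulum, and it had the highest fold change of the 10. Its log2 signal was 12.77, 12.74, 12.56 and 13.30 in scrmb and 12.91, 13.57, 13.30 and 13.01 in MYTHO. All MYTHO arrays lay above 3 of the scrmb arrays, and the scrmb array of animal D lay among them. Averages were 12.84 ± 0.32 in scrmb and 13.20 ± 0.30 in MYTHO (SD, n = 4 each). This was a fold of 1.28, a log2 fold change of 0.36 with a standard error of 0.22 (limma unadjusted p = 0.129, adjusted p = 0.549). Leaving out single arrays moved it from 0.23 without MYTHO B to 0.51 without scrmb D. The limma adjusted p was 0.785 and 0.309 in these cases, and the unadjusted p 0.323 and 0.0359.

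*Opa1* (chr16:29579281-29663127) codes for the GTPase that fuses inner membranes and shapes cristae. Its log2 signal was 13.72, 13.50, 13.47 and 13.27 in scrmb and 13.29, 13.99, 13.61 and 13.65 in MYTHO, so the lowest MYTHO array, of animal A, lay close to the lowest scrmb array. *Opa1* differed by 0.15 on the log2 scale (95% interval -0.28 to 0.57, limma adjusted p = 0.814), and by 0.03 without MYTHO B and 0.26 without MYTHO A.

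**Figure D2:**
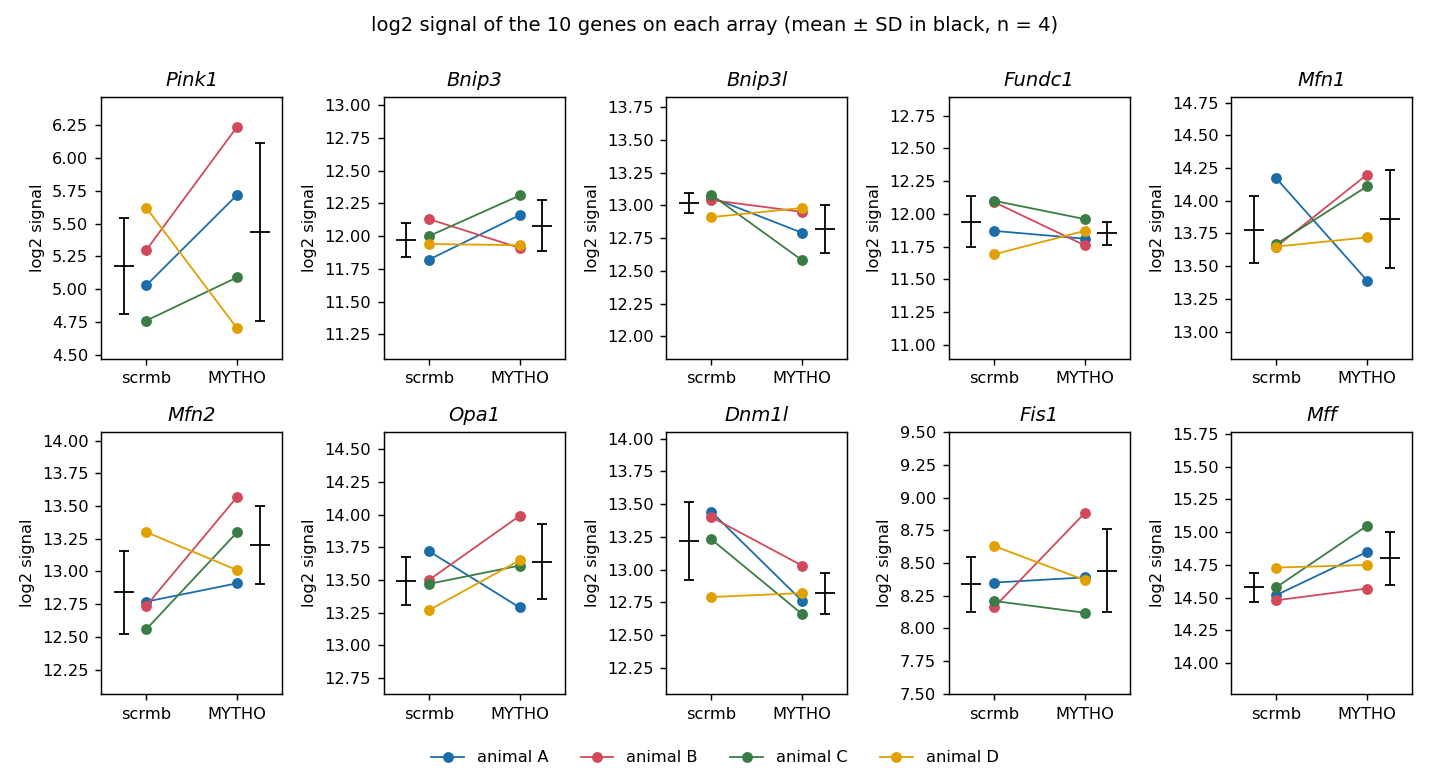
Log2 signal of each gene (vertical axis, each panel spanning 2 log2 units) in the scrmb and MYTHO legs; lines join the legs of an animal, and black marks give the mean ± SD of 4 arrays. The groups overlap in all 10 panels, and the scrmb point of animal D lies near the MYTHO points for *Mfn2* and *Dnm1l*.

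Of the fission genes, *Dnm1l* came closest to the thresholds. *Dnm1l* (chr16:16312228-16359038) codes for DRP1, the dynamin-related GTPase that constricts mitochondria. Its log2 signal was 13.44, 13.40, 13.23 and 12.79 in scrmb and 12.76, 13.03, 12.66 and 12.82 in MYTHO. The MYTHO arrays all lay below the scrmb arrays of animals A, B and C, while scrmb D lay within the MYTHO range. Averages were 13.22 ± 0.30 for scrmb and 12.82 ± 0.16 for MYTHO (SD, n = 4 each). The MYTHO signal was 75.9% of scrmb, a log2 fold change of -0.40 with a standard error of 0.19 and a 95% interval from -0.82 to 0.03. The limma unadjusted p was 0.0632 and the adjusted p 0.435, and exact permutation of the arrays, two-sided, put p at 0.0857, where 0.0286 is the smallest value these arrays allow. Without scrmb A the log2 fold change was -0.32, and without scrmb D it was -0.54, the ends of the range over single arrays. The limma adjusted p was 0.604 and 0.214 in these cases, and the unadjusted p 0.151 and 0.0145. Without MYTHO B the unadjusted limma p was 0.0475, and without any other single array it was over 0.05. It was 0.228 without both arrays of animal A, 0.0315 with the trend and robust options and 0.0455 with array weights.

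*Fis1* (chr5:136953275-136966234) and *Mff* (chr1:82724890-82752390) code for outer membrane proteins, and MFF is a receptor that draws DRP1 to the membrane. *Fis1* had log2 signals of 8.35, 8.16, 8.21 and 8.63 in scrmb and 8.39, 8.88, 8.12 and 8.37 in MYTHO. Its MYTHO arrays enclosed the scrmb range, and the log2 fold change was 0.10 (95% interval -0.34 to 0.55, limma adjusted p = 0.884). *Mff* had log2 signals of 14.52, 14.48, 14.58 and 14.73 in scrmb and 14.85, 14.57, 15.05 and 14.75 in MYTHO. It was the only 1 of the 10 with the same sign in all 4 animals, being higher in each MYTHO leg, by 0.02 to 0.47. On average the groups differed by 0.23 on the log2 scale (95% interval -0.15 to 0.61), and the limma adjusted p was 0.647 (exact permutation, two-sided, p = 0.0857).

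The difference between the legs of each mouse showed where the groups came together. In animals A, B and C, 6 of the 10 genes had 1 sign throughout, namely *Pink1*, *Mfn2* and *Mff* with higher and *Bnip3l*, *Fundc1* and *Dnm1l* with lower signal in the MYTHO leg. Of all probe sets, 35.3% had 1 sign in these 3 animals. In animal D, 5 of these 6, all but *Mff*, had the opposite sign, as did 43.0% of the 7831 probe sets with 1 sign in the other animals. This is 5 of the 10 genes and 15.2% of all probe sets. *Dnm1l* differed by -0.68, -0.37 and -0.57 in animals A, B and C and by 0.03 in D, and *Mfn2* by 0.14, 0.83 and 0.74 and by -0.29. Animal D was singled out after its values were seen, so these counts are a description. For comparison, the *Mytho* log2 signal differed by -3.19, -3.11, -1.98 and -2.97 in animals A to D.

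The mean of the slow-fibre genes also differed least between the legs in animal D, but without a turn of sign and through another array. Over 8 such genes it was higher in the MYTHO leg by 1.18, 2.52 and 2.87 in animals A, B and C. In animal D it was higher by 0.08, on the log2 scale. Single genes did turn sign in animal D, namely *Myh7*, *Myl2* and *Myl3* at -0.1, -0.41 and -0.4, while the other genes of the list stayed higher. In the list mean, scrmb D was the lowest scrmb array and MYTHO D lay at its level, whereas for *Mfn2* and *Dnm1l* scrmb D lay among the MYTHO arrays. Of the 8, 7 had an unadjusted limma p under 0.05 (12.4% of all probe sets), and 7 of 8 passed the threshold of the study (1.51%). The highest were *Tnni1*, *Tnnc1* and *Myh7* with log2 fold changes of 2.44, 1.88 and 1.82, and the lowest of those 7 were *Myl3*, *Tnnt1* and *Atp2a2* with 1.28, 1.41 and 1.51, although none had an adjusted p under 0.05 or groups without overlap. Fast-fibre genes could hardly be compared, since 7 of 9 had scrmb means of 19.70 to 19.93, at or near the ceiling of 19.93. Of the 2 below it, *Myh1* had a log2 fold change of 0.70 with an unadjusted limma p of 0.0178, and *Tnnc2* one of 0. The part of fibre type in the differences of the 10 genes was not tested.

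**Figure D3:**
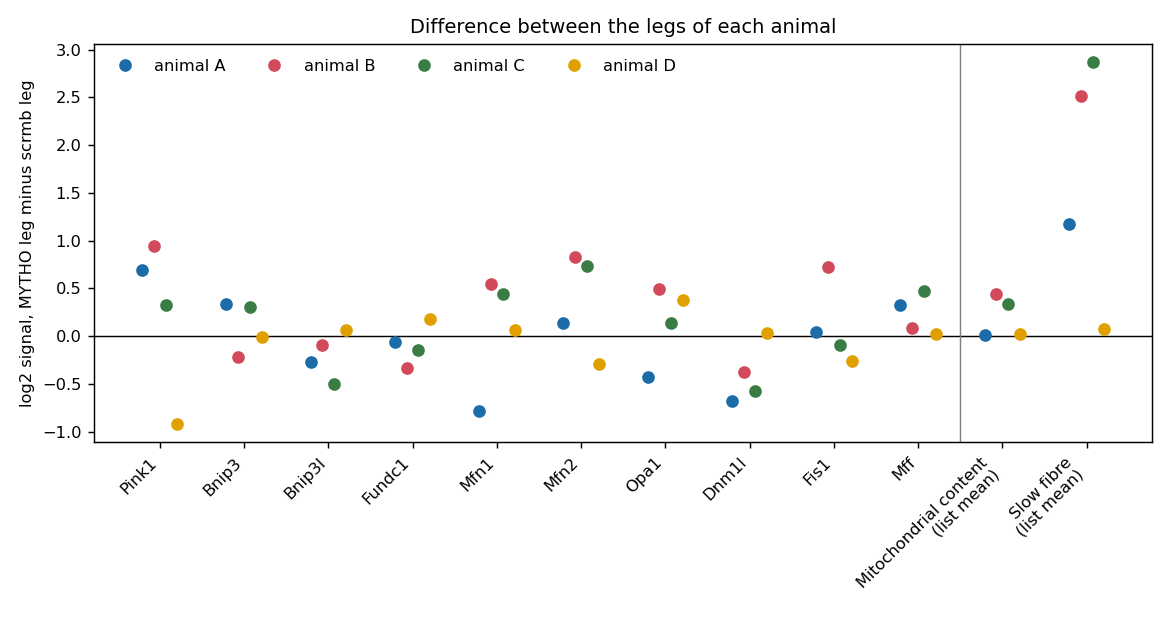
Log2 signal of the MYTHO leg minus that of the scrmb leg (vertical axis) for each gene and, right of the line, for the means of the mitochondrial content and slow-fibre lists; each point is 1 animal. Animal D lies close to 0 or on the other side of 0 from animals A, B and C for *Pink1*, *Bnip3l*, *Fundc1*, *Mfn2* and *Dnm1l*, and at 0.08 for the slow-fibre list.

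Within an array, the signal of one gene can be set against another to ask whether both changed alike; its zero point has no meaning, since probes differ in brightness. The pairs were formed after the single values had been seen, so they are a description. Of the 45 pairs among the 10 genes, 1 had groups that did not overlap, *Opa1* minus *Dnm1l*. This log2 difference was 0.28, 0.10, 0.24 and 0.48 in scrmb and 0.53, 0.96, 0.95 and 0.83 in MYTHO. Every MYTHO array lay above every scrmb array, though scrmb D and MYTHO A were only 0.05 apart. Its mean was higher by 0.54 in MYTHO. Of all 22205 other probe sets set against *Dnm1l* in the same way, 10.3% had no overlap. The largest difference among the pairs was 0.75, for *Mfn2* minus *Dnm1l*, which was -0.67, -0.66, -0.67 and 0.51 in scrmb and 0.15, 0.54, 0.64 and 0.19 in MYTHO. Here 3 scrmb arrays were nearly equal and below all MYTHO arrays, and scrmb D lay in the MYTHO range.

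Partners of the 10 genes also showed few differences. Over 5 lists with 52 genes, none changed by at least 2-fold at an unadjusted p under 0.05 and none had an adjusted limma p under 0.05. An unadjusted limma p under 0.05 was found for 3 genes with higher signal (5.77%, against 4.81% of all probe sets) and for 0 with lower signal (against 7.58%). The median log2 fold change of the 52 was 0.12. By list it was -0.005 for 15 genes of the PINK1-parkin axis, 0.15 for 12 other mitophagy receptors and partners, 0.12 for 11 fusion partners, -0.05 for 10 fission partners and 0.31 for 4 genes of mitochondrial transport. Parkin itself, listed as *Park2*, differed by 0.14 and was higher in 2 of 4 animals.

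The 3 genes with higher signal came from different lists. *Inf2*, a formin that builds actin at sites of fission, had log2 signals of 6.17, 6.35, 6.16 and 6.13 in scrmb and 6.71, 6.97, 6.84 and 7.06 in MYTHO. All 4 animals were higher by 0.54 to 0.93, and on average by 0.69 on the log2 scale (limma unadjusted p = 0.00133, adjusted p = 0.135). *Phb2*, a prohibitin of the inner membrane that serves as a mitophagy receptor, had log2 signals of 13.43, 13.40, 12.93 and 13.69 in scrmb and 13.78, 14.15, 14.11 and 13.88 in MYTHO. Its log2 fold change was 0.62 (limma unadjusted p = 0.00953, adjusted p = 0.243). *Trak2*, an adaptor that links mitochondria to motor proteins, had log2 signals of 11.51, 11.46, 11.34 and 11.65 in scrmb and 11.83, 12.46, 12.53 and 11.72 in MYTHO. The log2 fold change was 0.65 (limma unadjusted p = 0.0121, adjusted p = 0.264), and animal D again differed least, by 0.07.

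Groups without overlap were found for 6 of the 52 genes, 11.5% against 6.46% of all probe sets. They were *Inf2*, *Phb2* and *Trak2*, and 3 more that are named here after their values were seen. *Mtfr1l*, a mitochondrial fission regulator like gene, was higher with a log2 fold change of 0.27. *Yme1l1*, a protease that cleaves OPA1, and *Tax1bp1*, an autophagy cargo receptor, were lower with log2 fold changes of -0.38 and -0.29. Their limma adjusted p values were 0.548, 0.427 and 0.503.

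Mitochondrial content itself was not measured on these arrays. The transcripts of 11 genes linked to it were read, among them *Cs*, which codes for citrate synthase. Their median log2 fold change was 0.28, with values from -0.28 to 0.54. *Cox4i1* and *Atp5a1*, subunits of cytochrome oxidase and ATP synthase, had unadjusted limma p values of 0.0409 and 0.0431 with log2 fold changes of 0.54 and 0.43 and adjusted p of 0.380 and 0.386. Neither had groups without overlap, and with the animal as a block their unadjusted limma p values were 0.0574 and 0.0717. The list mean was higher in the MYTHO leg by 0.01, 0.45, 0.34 and 0.02 in animals A to D.

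**Figure D4:**
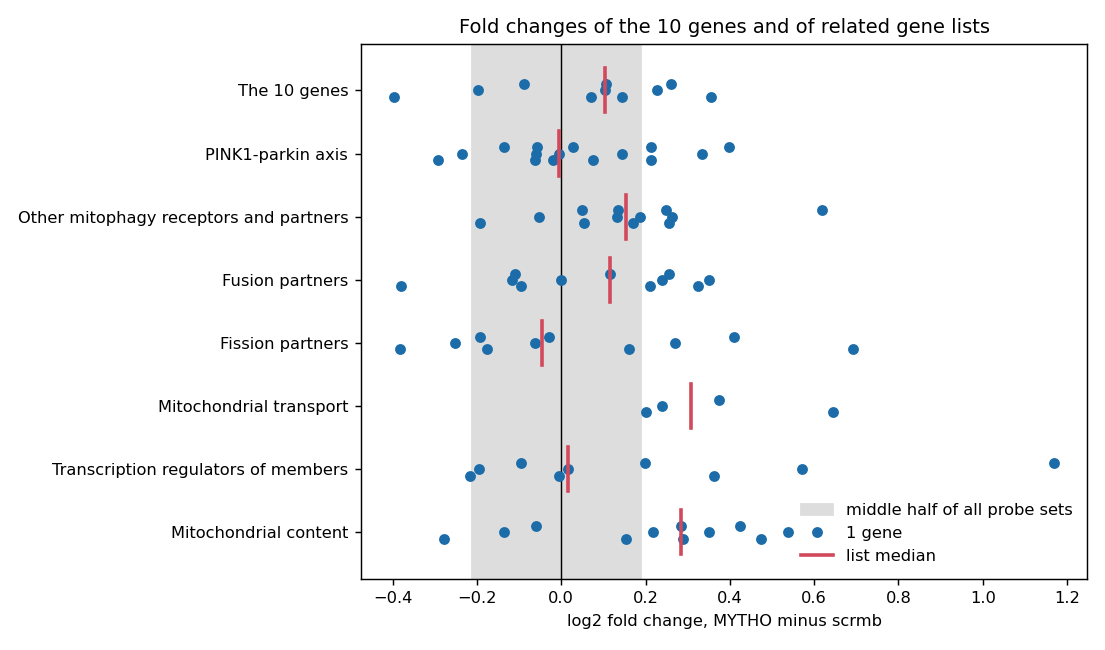
Log2 fold change, MYTHO minus scrmb (horizontal axis), of the 10 genes and of 7 gene lists (rows); each point is 1 gene, red bars are list medians, and the grey band holds the middle 50% of all probe sets, from -0.21 to 0.19. The 10 genes spread around a median of 0.10, and *Epas1* lies farthest out at 1.17.

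Among 9 transcription factors and coactivators known to act on these genes, 1 had an unadjusted limma p under 0.05 (12.4% of all probe sets). *Epas1*, which codes for HIF-2α, had log2 signals of 11.69, 11.36, 10.63 and 10.91 in scrmb and 12.37, 12.63, 12.31 and 11.95 in MYTHO. All MYTHO arrays lay above all scrmb arrays, and the mean difference was 1.17 on the log2 scale (limma unadjusted p = 0.00051, adjusted p = 0.105). It was past the threshold of the study (1.51% of all probe sets) with all arrays. Without scrmb C it was not, at a log2 fold change of 0.995, nor without both arrays of animal C, at 0.997. The adjusted limma p was 0.0251 with the trend and robust options and ran from there to 0.497 over the alternatives. All 4 endothelial markers had log2 fold changes above 0, and 2 had an unadjusted limma p under 0.05 (12.4% of all probe sets). *Pecam1*, *Cdh5* and *Tek* had groups without overlap (6.46% of all probe sets), with log2 fold changes of 0.45, 0.22 and 0.86, and *Kdr* differed by 0.49. Their limma adjusted p values were 0.366, 0.635, 0.213 and 0.416, and the unadjusted ones 0.0369, 0.200, 0.00606 and 0.0546. Their summed linear signal was 9980 to 12800 in scrmb and 14500 to 15900 in MYTHO, of which *Cdh5* made up 57.4% to 71.5%, with no marker at 0. In scrmb C, the array with the lowest *Epas1* signal, *Cdh5*, *Kdr* and *Tek* were also lowest, while *Pecam1* was lowest in scrmb D. The part of endothelial cells in the *Epas1* difference was not tested. Of the 9 genes with a window, only *Bnip3* and *Mfn2* had ACGTG in one, for *Mfn2* only in windows of other start sites. They differed by 0.11 and 0.36, and neither passed a test. ACGTG was in 19.6% of all windows, and whether HIF-2α acts on these genes was not tested. The other 8 regulators had groups that overlapped and unadjusted limma p values over 0.05. Log2 fold changes were 0.36, -0.20 and 0.20 for *Foxo1*, *Foxo3* and *Foxo4*, 0.02 for *Hif1a*, -0.10 and 0.57 for *Ppargc1a* and *Ppargc1b*, -0.22 for *Esrra* and -0.005 for *Tfeb*.

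The array profile most like that of *Dnm1l*, the gene with the largest absolute fold change, was sought among all probe sets after centring each on its mean. Over 8 arrays, the smallest root mean square differences in log2 signal were those of *Atp6v1c1*, *Ints12*, *Wwc2*, *Tlk2* and *Ppa1*, from 0.07 to 0.10. Their log2 fold changes ran from -0.385 to -0.297. With 8 arrays and this many probe sets, such likeness is a description.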

How the data were processed

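Per the labels and methods, RNA was hybridised to Clariom S Mouse arrays, and the authors deposited log2 signals from the Transcriptome Analysis Console 4.0.1 with default settings. Per the file headers these are gene-level SST-RMA values, a method that corrects background, normalizes by quantiles and summarises each probe set, with annotation release 36 on mm10. The authors' group averages, fold changes (a ratio), p-values and false discovery rates in the same deposited table were not used. MYTHO was compared with scrmb by limma 3.58.1 in R 4.3.3 (lmFit and eBayes, two-sided, no block) over all 22206 probe sets, with Benjamini-Hochberg adjustment. The code was tested on simulated data. Precision is limited by 4 arrays in each group.

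The 10 genes and the lists were chosen with earlier results of these data known. Named were all 10 genes, list genes with an unadjusted p under 0.05 (at most 3 highest and 3 lowest of a list), and the 5 profiles nearest to the largest absolute change. Other list and marker genes in the text (parkin, *Cs*, the remaining regulators, genes whose groups did not overlap, *Tnnc2*, *Myl2*, *Acta1*, and cell type markers) fall outside this rule and were named after their values were seen. Related genes were matched by symbol, then by synonyms in RefSeq. Left and right legs of a mouse were paired by the number in the column names. Same-numbered deviations from the group means correlated at 0.003, -0.001, 0.135 and 0.087 across probe sets, and different-numbered ones at -0.167 to 0.104, so the pairing rests on the numbers and the design and not on these values. Which labelled replicate a column holds is not known, so columns were assigned to groups only. Alternatives were a block on animal (fixed or random), median centring, quantile normalization, the upper 75% or 50% of probe sets, no saturated probe sets, trend and robust options, array weights, and leaving out arrays or animals.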

Additional observations from a re-analysis of the deposited data

Results flagged for a closer look

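In 118 groups of 4 arrays, covering the 10 genes, related and marker genes given with values and the list means, 16 held 1 array that stood apart by Dixon's test at the 95% level, which divides the distance to the closest array by the range (gap share). Chance alone gives about 1 in 20, and genes of a list share their arrays. Of the 10 genes, this was found for *Mfn1* alone, at 14.17 in scrmb A against 13.65 to 13.67 in the other scrmb arrays (gap share 0.962).

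Slow-fibre genes and their mean gave 8 of the 16. The list mean was 13.70 in scrmb A against 11.61 to 11.94 (0.842), and 11.68 in MYTHO D against 14.43 to 14.88 (0.859). In scrmb A, *Myh7* was 13.75 against 11.53 to 11.89 (0.838). In MYTHO D, *Tnni1* was 9.25 against 12.99 to 13.39 (0.903), and *Tnnc1* was 10.52 against 13.56 to 13.72 (0.95). There *Myh7* was 11.58 against 14.68 to 15.13 (0.873), *Tnnt1* was 12.06 against 14.26 to 14.71 (0.83), and *Atp2a2* was 13.66 against 15.98 to 16.19 (0.917).

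The fast-fibre gene *Tnnc2* was 19.02 in scrmb D against 18.63 to 18.68 (0.872). Among marker genes, *Cdh5* in scrmb C was 12.80 against 13.04 to 13.06 (0.923), and *Kdr* in the same array was 10.77 against 11.42 to 11.47 (0.929). *Pecam1* in MYTHO A was 10.48 against 10.29 in each of the others (1.00). *Col3a1* in MYTHO A was 11.35 against 9.61 to 9.72 (0.937). The targeted gene, D230025D16Rik, was 8.80 in MYTHO C against 8.08 to 8.20 (0.833). The mean of the fusion partners was 10.75 in MYTHO B against 10.37 to 10.43 (0.844).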

How the results depend on the processing

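No alternative brought any of the 10 genes past an adjusted p of 0.05 or past the threshold of the study. At an unadjusted limma p under 0.05, the count of 0 of 10 became 1 with trend and robust (12.8% of all probe sets). It became 1 with array weights (13%), in each case *Dnm1l*, and ran from 0 to 2 without single arrays. It was 2 without scrmb D (*Dnm1l* and *Mfn2*, against 14.4% of all probe sets) and 1 without MYTHO B (9.84%). Without both arrays of animal D, which was added with the data in view, it was 2 (13.5%). With the replicate block on animal, fixed or random, the count stayed at 0, and *Dnm1l* had an unadjusted p of 0.0721 or 0.0564. With the fixed block, *Cox4i1* and *Atp5a1* were no longer under an unadjusted p of 0.05 (0.0574 and 0.0717), and *Myl2*, a slow-fibre gene, was (0.0181). For the 52 related genes, the count of 3 ran from 3 to 5 without single arrays. It was 5 without scrmb D (14.4% of all probe sets) and 5 without MYTHO D (11.9%). Without both arrays of animal C it was 1 (8.24%), and without both of animal D it was 5 (13.5%). Signs turned for 3 genes. Leaving out single arrays gave log2 fold changes from -0.0075 to 0.506 for *Pink1*, -0.045 to 0.225 for *Mfn1* and -0.0442 to 0.209 for *Fis1*. For the other 7, which kept their sign, these ranges were 0.0275 to 0.161 for *Bnip3*, -0.249 to -0.116 for *Bnip3l*, -0.17 to -0.0333 for *Fundc1*, 0.231 to 0.508 for *Mfn2*, 0.0267 to 0.26 for *Opa1*, -0.539 to -0.322 for *Dnm1l* and 0.146 to 0.306 for *Mff*. Without both arrays of animal B it was -0.09 for *Mfn1* and -0.103 for *Fis1*, and without both of animal C it was -0.0533 for *Mfn1*. The causes were not tested. In all, 202 of 209 values of the 10 genes under alternatives kept their sign and their side of an adjusted p of 0.05, and 7 turned sign. No gene among the 10 had another probe set to try.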
